A study of Mus musculus with 4 samples.

Results

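Of 10 heat shock and immediate early genes, all but Hspa8 had lower levels over all CD11b+ splenocytes of GM-CSF-treated mice compared with steady-state mice. Hspa8 was slightly higher (ratio 1.14), and how far the others were lower differed between genes and between cell types. Of the 27998 genes in the count table, the 10 members were the heat shock genes Hspa1a, Hspa1b, Hsph1, Dnajb1 and Hspa8 and the immediate early genes Fos, Jun, Junb, Egr1 and Dusp1. Hspa1a and Hspa1b were chosen by their lower level after GM-CSF in P-I cells, the classical monocytes of the study, so the values of that contrast are given as a description. The other members were listed with results of these data known, and none of the values below is a test.

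Heat shock genes encode chaperones, which bind unfolded proteins and help them fold. The inducible HSP70 genes Hspa1a and Hspa1b are transcribed within minutes once heat shock factor 1 binds the heat shock elements of their promoters, whereas Hspa8 encodes the constitutive HSP70 that cells make at rest. Immediate early genes need no new protein synthesis for their transcription and answer growth factors, cytokines and mechanical or enzymatic handling of tissue, and both gene classes are known to be induced while tissue is made into a cell suspension.

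The study ground mouse spleens into cell suspensions, lysed the erythrocytes, sorted CD11b+ cells by flow cytometry and captured them for CITE-seq, in which each droplet yields the mRNA of a cell and tags of antibodies bound to its surface. The steady-state library came from untreated mice. Mice of the GM-CSF-treated library had received GM-CSF under the skin, 10 µg a day on 3 days, and were examined 24 hours after the last dose. The study's methods give C57BL/6 mice and, for the experiments in general, an age of 8 to 12 weeks. How many mice were pooled in a library is not given in the sources used here. With 1 library per condition there was no replicate, so a difference between the conditions cannot be told apart from a difference between the libraries, including the way each suspension was handled. All intervals below are exact 95% intervals that cover counting error only.

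The steady-state library held 4827 cells and 22358903 UMIs, and the GM-CSF-treated library 6804 cells and 35007567 UMIs, a UMI being a counted molecule. Their median depths were 3371 and 4916 UMIs per cell, their median mitochondrial shares 2.49% and 3.44%, and 8 cell barcodes occurred in both. A level is given as CPM, the UMIs of a gene per 1000000 UMIs summed over a group of cells, and a ratio as the CPM after GM-CSF over the CPM in steady state, with 0.5 counts added to each sum. A gene was counted as compared in a group of cells when it had at least 50 UMIs over both libraries, and called when its ratio was at most 0.5 or at least 2. The median log2 ratio over all genes compared in all cells was -0.09.

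Of the 12 deposited cell types, 9 had at least 30 cells in each library. These were granulocytes, neutrophils, progenitor DCs, B cells, T cells and the mixed monocyte, macrophage and dendritic cell type in the 4 deposited groups MoMacDC_c1, MoMacDC_c2, MoMacDC_c4 and MoMacDC_c5. The label cDC2-A went against its markers: all 214 steady-state and all 20 GM-CSF-treated cells of that label held over 5 UMIs of 6 NK cell genes (Klrb1c, Ncr1, Nkg7, Gzma, Prf1 and Klre1), and they are given below by level only. MoMacDC_c4 was affected too, since 27 of its 43 steady-state cells but 0 of its 595 GM-CSF-treated cells held over 5 UMIs of these genes (summed level, 11950 against 1.57 CPM). The main counts over cell types are therefore also given without MoMacDC_c4. Its steady-state cells also held 323 CPM of B cell markers, against 2.62 CPM after GM-CSF. Steady-state B cells carried 3442 CPM of neutrophil markers and 1259 CPM of monocyte markers, against 813 and 159 CPM after GM-CSF, and T cells carried 2775 and 350 CPM of neutrophil markers and 609 and 144 CPM of monocyte markers. In progenitor DCs, neutrophil markers were at 9407 and 2151 CPM and monocyte markers at 715 and 97.0 CPM. Monocyte markers, a list that includes the immediate early gene Nr4a1, were also lower in MoMacDC_c1 (6054 and 1703 CPM) and MoMacDC_c2 (2220 and 755 CPM). They were at 3888 and 2262 CPM in MoMacDC_c5, and higher after GM-CSF in MoMacDC_c4 (1317 and 1491 CPM). What neutrophil transcripts contributed to the values of these types was not tested.

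Promoter sequences are shown because the members that shared a pattern can be compared there for known motifs. RefSeq promoters of GRCm38.p6 were matched for 8 of the 10 members, and none was used for Hspa8 and Egr1. The last 150 bases before the start site are printed 5′ to 3′, with capitals for GAANNTTC or TTCNNGAA (paired units of a heat shock element) in heat shock genes, and for the CArG box, TGACGTCA, TGANTCA or TATAAA in immediate early genes.
Hspa1a, chr17:34972157-34972306, minus strand: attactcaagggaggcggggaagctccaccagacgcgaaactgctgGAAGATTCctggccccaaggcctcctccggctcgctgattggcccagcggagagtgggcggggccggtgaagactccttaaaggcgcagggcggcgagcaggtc
Hspa1b, chr17:34959239-34959388, minus strand: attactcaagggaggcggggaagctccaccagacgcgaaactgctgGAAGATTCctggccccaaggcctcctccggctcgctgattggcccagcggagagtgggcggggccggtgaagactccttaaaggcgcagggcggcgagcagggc
Hsph1, chr5:149636337-149636486, minus strand: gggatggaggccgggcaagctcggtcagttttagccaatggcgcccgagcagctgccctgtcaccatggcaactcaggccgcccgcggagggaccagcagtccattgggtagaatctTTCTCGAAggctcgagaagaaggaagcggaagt
Fos, chr12:85473740-85473889, plus strand: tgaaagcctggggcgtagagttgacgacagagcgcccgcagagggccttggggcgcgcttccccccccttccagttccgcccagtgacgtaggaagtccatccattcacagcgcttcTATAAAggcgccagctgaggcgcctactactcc
Dusp1, chr17:26508473-26508622, minus strand: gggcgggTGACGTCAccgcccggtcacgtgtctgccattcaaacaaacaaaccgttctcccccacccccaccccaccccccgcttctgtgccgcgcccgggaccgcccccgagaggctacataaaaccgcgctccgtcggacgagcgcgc
Hspa1a lies at chr17:34969190-34972156 and Hspa1b at chr17:34956436-34959238 in the annotation of GRCm38, 9951 bases apart on the same strand. Their promoters differed at 3 of 250 bases, and the near identity of the genes means that reads may have been split between them with error, so their sum is given beside the separate values. Both held GAANNTTC with its outermost base 104 bases before the start site. Jun, whose promoter is not printed, held GAANNTTC 128 bases before the start site. Hsph1 held TTCNNGAA, with its outermost base 33 bases before the start site printed. Neither form was found for Dnajb1, Fos, Junb and Dusp1 in this window. Of 32851 promoters in the table, 12.8% held at least 1 of both forms in the same 250 bases on either strand. Fos held TATAAA, which 12.4% of promoters held, and Dusp1 held TGACGTCA, which 1.55% held. The CArG box (1.47% of promoters) and TGANTCA (6.75%) were not found in these 250 bases of Fos, Jun, Junb and Dusp1. Sites further upstream were not searched, so a motif not found here may lie outside the window. In the same window, CCAAT (33.9%, both strands searched as for all motifs) was found for Hspa1a, Hspa1b, Hsph1, Dnajb1, Jun and Junb. A match in these letters is a description and does not show that a factor binds.

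Over all cells, 8 of the 10 members were at least 2-fold lower in the GM-CSF-treated library, where 10.1% of the 11476 genes compared were. None was at least 2-fold higher, where 7.74% of all genes were. Because the members were chosen with results known, these counts are a description and cannot be weighed against the shares of all genes. Hspa1a and Hspa1b, the inducible HSP70 genes, differed most. Hspa1a was at 418 CPM (9343 UMIs) in steady state and 19.7 CPM (688 UMIs) after GM-CSF, a ratio of 0.0471 (0.0435 to 0.0508). Hspa1b was at 460 and 18.9 CPM, a ratio of 0.0411 (0.0379 to 0.0445). The summed UMIs of both genes gave 878 and 38.6 CPM.

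The other heat shock members differed less or not in the same direction. Hsph1, an HSP110 that exchanges the nucleotide of HSP70, was at 39.6 and 11.9 CPM, a ratio of 0.302 (0.268 to 0.339). Dnajb1, an HSP40 that hands substrates to HSP70, was at 77.5 and 39.6 CPM, a ratio of 0.511 (0.476 to 0.549). Hspa8, the constitutive HSP70, was slightly higher, at 1661 and 1899 CPM, a ratio of 1.14 (1.13 to 1.16). Induced and constitutive members of the HSP70 family were thus on opposite sides of 1 in the same libraries.

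All 5 immediate early members were at least 2-fold lower over all cells. Fos, which pairs with Jun proteins to form AP-1, was at 1152 and 175 CPM, a ratio of 0.152 (0.148 to 0.156). Egr1, a zinc finger transcription factor, was at 274 and 59.0 CPM, a ratio of 0.216 (0.205 to 0.227). Dusp1, a phosphatase that inactivates MAP kinases, was at 1330 and 401 CPM, a ratio of 0.302 (0.296 to 0.308). Jun was at 517 and 179 CPM, a ratio of 0.345 (0.335 to 0.356), and Junb at 1312 and 629 CPM, a ratio of 0.480 (0.471 to 0.488). When each cell type was weighted by its share of the pooled UMIs, so that the mix of cell types was the same in both libraries, the ratios were 0.0398 for Hspa1a, 0.0381 for Hspa1b, 0.183 for Fos and 0.194 for Egr1, while Junb moved to 0.610 and Dusp1 to 0.438.

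The question of whether the shift was shared was taken type by type. Of 90 combinations of member and cell type, 85 had enough UMIs, and 77 of these ratios were below 1 and 8 above. At least 2-fold lower were 59 of the 85, and 0 were at least 2-fold higher. Without MoMacDC_c4, 68 of 75 ratios were below 1 and 7 above, 52 were at least 2-fold lower and 0 at least 2-fold higher. Of the 6 members compared in all 9 types, Fos, Jun and Junb were lower in each type, where 12.8% of the 1950 genes compared in all 9 types were, and no member was higher in each, where 7.23% of those genes were. The same number, 3, was found without MoMacDC_c4, in which Junb had a ratio of 0.946 with an interval that included 1 (0.806 to 1.12). In the 16 steady-state cells of that type with at most 5 UMIs of NK cell genes, against its 595 GM-CSF-treated cells, the Junb ratio was 1.0. With every ratio divided by the median ratio of its cell type, 2 members were lower in each type, and Junb in MoMacDC_c4 was not lower.

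**Figure D1:**
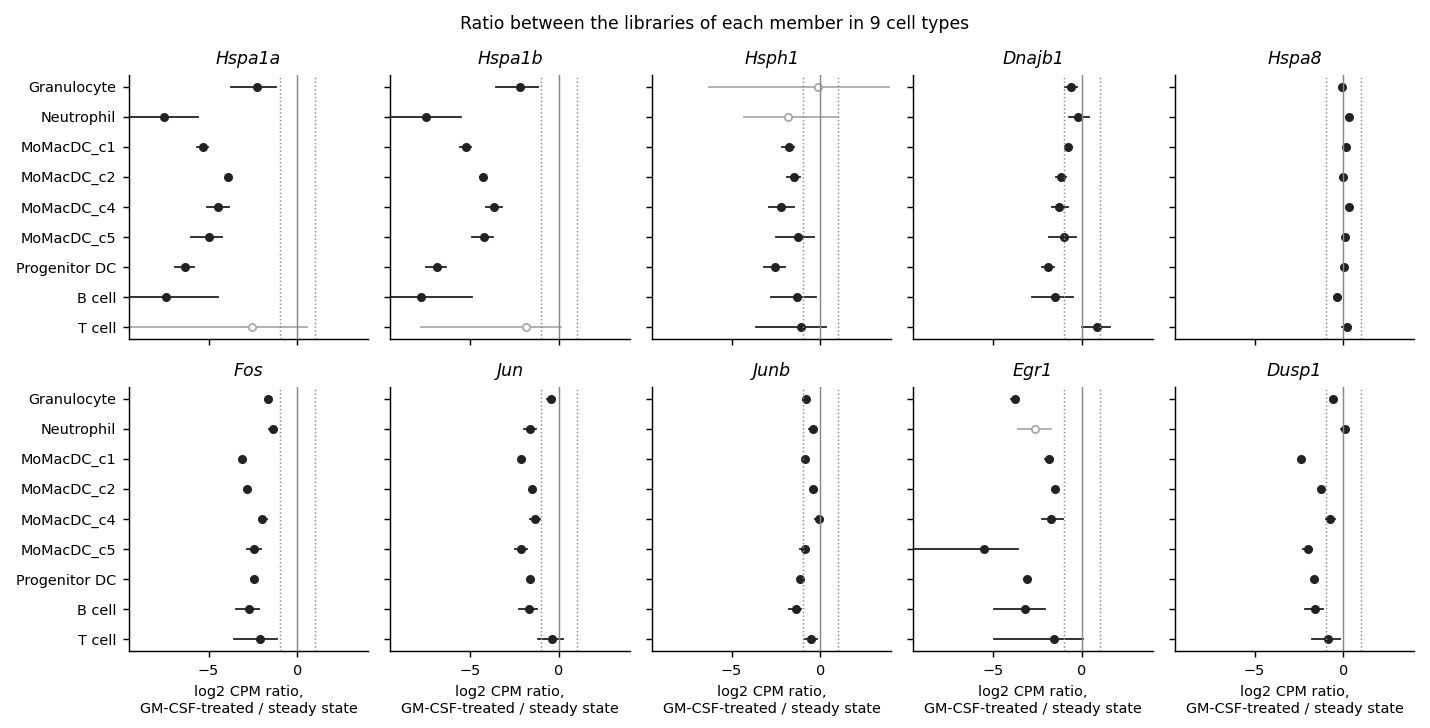
Log2 CPM ratio (GM-CSF-treated over steady state) of the 10 members in 9 cell types, with exact 95% counting intervals as bars. Open grey points had under 50 UMIs, dotted lines mark 2-fold, and bars that reach the left edge go on beyond it. Fos lay left of the 2-fold line in all 9 types, Hspa8 stayed between the 2-fold lines in all 9, and Dusp1 in neutrophils and Dnajb1 in T cells lay right of 0.

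Fos was at least 2-fold lower in all 9 types, and in all 8 without MoMacDC_c4, with ratios from 0.116 (0.109 to 0.123) in MoMacDC_c1 to 0.391 (0.335 to 0.459) in neutrophils. Its steady-state level was 1917 CPM in granulocytes, 1263 in MoMacDC_c1, 1189 in MoMacDC_c2, 1020 in progenitor DCs, 812 in MoMacDC_c5, 596 in B cells, 479 in MoMacDC_c4, 336 in T cells and 233 in neutrophils. After GM-CSF it was 618 CPM in granulocytes and between 72.0 and 186 CPM in the other 8 types. Of the 9 types, granulocytes were highest for Fos in both libraries, the steady-state intervals of MoMacDC_c1 (1241 to 1286) and MoMacDC_c2 (1137 to 1244) overlapped, and the GM-CSF-treated level of every type lay below its own steady-state level.

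Jun was lower in all 9 types, but its ratio was 0.743 (0.640 to 0.860) in granulocytes and 0.758 in T cells (0.436 to 1.19, an interval that included 1), and between 0.228 and 0.393 in the other 7. Junb ranged from 0.380 (0.298 to 0.475) in B cells to 0.946 in MoMacDC_c4, with 2 of 9 types at least 2-fold lower, B cells and progenitor DCs. Its level in granulocytes, 3182 CPM in steady state and 1849 CPM after GM-CSF, was above that of every other compared type in both libraries. Without MoMacDC_c4, Junb was at least 2-fold lower in 2 of 8 types.

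Egr1 had at least 50 UMIs in 8 types (7 without MoMacDC_c4) and was at least 2-fold lower in all 8, although in T cells, with 54 and 2 UMIs, the interval reached 1.05. Its lowest ratios were 0.0222 (0.000374 to 0.0829) in MoMacDC_c5, from 372 UMIs to 1, and 0.0740 (0.0616 to 0.0875) in granulocytes, from 770 to 56.8 CPM. In MoMacDC_c2 the ratio was 0.354 (0.321 to 0.390), from 384 to 136 CPM. The granulocyte and progenitor DC levels in steady state, 770 and 757 CPM, had overlapping intervals (742 to 799 and 709 to 807), and all other compared types lay below them.

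Dusp1 was the immediate early member that was not lower in every type. It went from 1010 to 192 CPM in MoMacDC_c1, a ratio of 0.191 (0.181 to 0.201), and from 1372 to 343 CPM in MoMacDC_c5, a ratio of 0.251 (0.209 to 0.297). In granulocytes, where its level was highest in both libraries, it went from 3523 to 2377 CPM, a ratio of 0.675 (0.654 to 0.696). In neutrophils it was at 195 and 204 CPM, a ratio of 1.05 (0.903 to 1.22). Within the same neutrophils Fos had a ratio of 0.391 and Jun of 0.324 (0.254 to 0.416), so members of the immediate early class were not lower by a common factor in these cells.

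**Figure D2:**
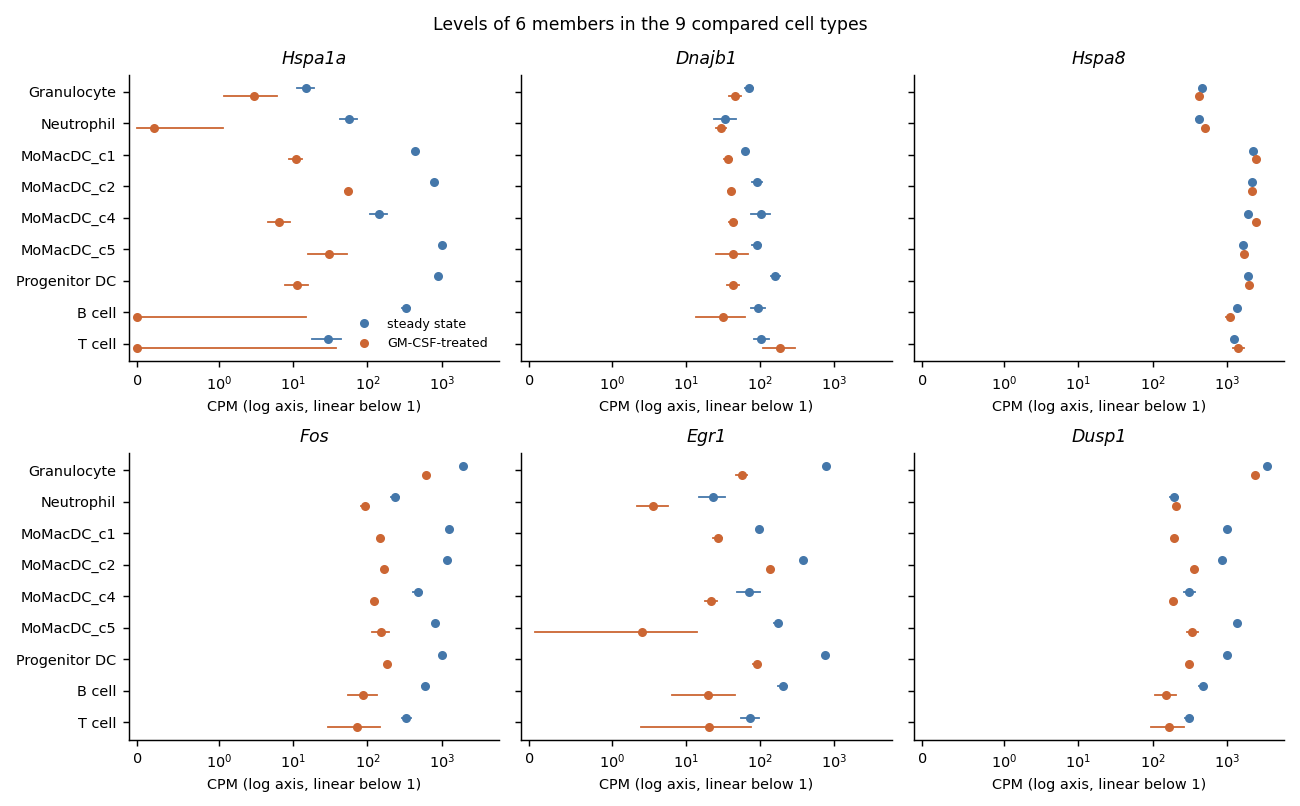
CPM of 6 members in 9 cell types of the steady-state (blue) and GM-CSF-treated (orange) libraries, on an axis that is logarithmic above 1 and linear below, with exact 95% Poisson intervals. Hspa1a in steady state ran from 14.7 CPM in granulocytes to 1001 CPM in MoMacDC_c5, whereas Dusp1 was highest in granulocytes at 3523 CPM. Hspa8 differed by less than 2-fold between the libraries in each type, with ratios from 0.790 in B cells to 1.25 in MoMacDC_c4.

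Of the compared types in steady state, granulocytes had the lowest level of Hspa1a but the highest levels of Fos, Junb and Dusp1. Hspa1a was at 1001 CPM (959 to 1044) in MoMacDC_c5, 897 (845 to 952) in progenitor DCs, 799 (756 to 844) in MoMacDC_c2, 434 (421 to 448) in MoMacDC_c1, 329 (292 to 369) in B cells, 142 (110 to 182) in MoMacDC_c4, 55.9 (42.8 to 71.8) in neutrophils, 28.9 (17.9 to 44.2) in T cells and 14.7 (11 to 19.2) in granulocytes. Among neighbours in this order, the intervals overlapped for neutrophils and T cells and for T cells and granulocytes. Granulocytes held 16.4% of the UMIs of the steady-state library and 46.3% of its Egr1, 43.5% of its Dusp1, 39.9% of its Junb and 27.4% of its Fos UMIs, but 4.84% of its Jun and 0.578% of its Hspa1a UMIs. In the cells labelled cDC2-A, which carried NK cell genes, steady-state Hspa1a was at 66.4 CPM (50.3 to 86.0) and Fos at 335 CPM (298 to 377).

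In MoMacDC_c1, MoMacDC_c2, MoMacDC_c5 and progenitor DCs, the 4 of the 9 types with the highest steady-state levels of Hspa1a, both inducible HSP70 genes were lower by more than 10-fold. Hspa1a went from 434 to 10.7 CPM in MoMacDC_c1, a ratio of 0.0248 (0.0199 to 0.0304), and from 799 to 54.1 CPM in MoMacDC_c2, a ratio of 0.0677 (0.0610 to 0.0751). It went from 1001 to 30.7 CPM in MoMacDC_c5, a ratio of 0.0319 (0.0158 to 0.0537), and from 897 to 11.1 CPM in progenitor DCs, a ratio of 0.0125 (0.00845 to 0.0174). Hspa1b had ratios of 0.0267, 0.0517, 0.0529 and 0.00846 in these 4 types, in the same order. The summed UMIs of both genes gave 0.0256, 0.0593, 0.0433 and 0.0102. In MoMacDC_c4 the ratios were 0.0455 and 0.0802 with all cells, and 0.0210 and 0.0444 when cells with over 5 UMIs of NK cell genes were left out, which left 16 steady-state cells. The steady-state values of that type rested on few cells, since 7 of 43 had a UMI of Hspa1a and 6 a UMI of Hspa1b, with 34 of 64 UMIs of Hspa1a and 42 of 85 of Hspa1b in 1 cell.

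In granulocytes, neutrophils and lymphocytes the inducible HSP70 genes were low in steady state or sat in few cells. Granulocytes had 54 UMIs of Hspa1a against 7, a ratio of 0.210 (0.0758 to 0.435), and no cell of the 1929 in steady state had more than 3. In steady-state neutrophils, 26 of the 61 UMIs of Hspa1a were in 1 of 146 cells, and the GM-CSF-treated neutrophils had 1 UMI, a ratio of 0.00539 (9.03e-05 to 0.0210). Steady-state B cells had 288 UMIs of Hspa1a and 384 of Hspa1b and those after GM-CSF had none, at least 27.5-fold and 36.7-fold lower against 3 counts in the GM-CSF-treated B cells. That B cell difference rested on cells that also carried monocyte transcripts. When B cells with a UMI of Csf1r, Fn1, F13a1 or Ace were left out, 150 of 196 steady-state cells stayed and their Hspa1a UMIs numbered 4 and their Hspa1b UMIs 17, with 0 of each in the remaining 75 cells after GM-CSF. Under 50 UMIs were then left for Hspa1a and Hspa1b in B cells, and fewer than 50 of each were found in T cells (21 and 40 UMIs in steady state, 0 and 1 after GM-CSF), so their shift in lymphocytes could not be measured at this depth.

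The immediate early shift in B cells did not rest on those cells alone. In the 150 and 75 B cells without a UMI of Csf1r, Fn1, F13a1 or Ace, Fos had 209 and 15 UMIs. Its ratio was 0.159 compared with 0.150 (0.0914 to 0.225) in all B cells. Junb had a ratio of 0.329 and Egr1 of 0.0765 (98 and 3 UMIs) in the same cells. Jun moved from 0.310 in all B cells to 0.545 and Dusp1 from 0.325 to 0.649. In the 157 and 38 T cells without a UMI of these genes, Fos had 192 and 7 UMIs, a ratio of 0.243. Cells with neutrophil transcripts or with other monocyte transcripts were not left out of either set. Csf1r, Fn1, F13a1 and Ace were themselves lower after GM-CSF over all cells (ratios 0.373, 0.289, 0.0758 and 0.168). Whether cells with monocyte transcripts were harder to recognise in that library, and what this did to the ratios, was not tested.

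Hsph1 and Dnajb1 divided the types otherwise. Hsph1 had at least 50 UMIs in 7 types (6 without MoMacDC_c4) and was at least 2-fold lower in each, from 0.170 (0.112 to 0.25) in progenitor DCs to 0.472 in T cells (0.0817 to 1.26, an interval that included 1), and it had 3 UMIs in all granulocytes. Dnajb1 went from 160 to 43.3 CPM in progenitor DCs, a ratio of 0.271 (0.215 to 0.339), and from 71.3 to 46.4 CPM in granulocytes, a ratio of 0.653 (0.517 to 0.815). In neutrophils the interval included 1 (ratio 0.870, 0.609 to 1.30), as it did in T cells, where the level was 105 CPM in steady state and 185 CPM after GM-CSF from 76 and 18 UMIs (ratio 1.81, 0.997 to 2.99). After GM-CSF the Dnajb1 level lay between 29.8 and 46.4 CPM in the 8 types other than T cells.

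Hspa8, the constitutive HSP70 gene, was called in no type. Its ratio ran from 0.790 (0.690 to 0.9) in B cells to 1.25 (1.17 to 1.34) in MoMacDC_c4, and in MoMacDC_c2 it was 0.999 (0.964 to 1.04), from 2168 to 2166 CPM, where Hspa1a was at 0.0677. In B cells without a UMI of Csf1r, Fn1, F13a1 or Ace the Hspa8 ratio was 0.932. The SD of the log2 ratio over cell types, which measures how unevenly a gene moved, was 0.21 for Hspa8, 0.41 for Junb, 0.54 for Hsph1, 0.58 for Fos, 0.63 for Jun, 0.77 for Dusp1, 0.80 for Dnajb1, 1.40 for Egr1, 1.79 for Hspa1a and 2.0 for Hspa1b. Over the 1950 genes compared in all 9 types the median SD was 0.36, with quartiles of 0.28 and 0.48. Hspa1a, Hspa1b and Egr1 were compared in 8 types and Hsph1 in 7, so these members were not in that set. The low counts of Hspa1a and Hspa1b after GM-CSF, and of Egr1 in MoMacDC_c5 (1 UMI), widen their SD, which was not corrected for counting error.

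Counted type by type, 4 of 9 members compared were at least 2-fold lower in granulocytes, where 3.20% of all genes were, and 4 of 8 in neutrophils, where 2.48% were. The counts were 7 of 10 in MoMacDC_c1 (background 7.26%), 8 of 10 in MoMacDC_c2 (6.81%), 7 of 10 in MoMacDC_c4 (12%), 8 of 10 in MoMacDC_c5 (6.73%) and 9 of 10 in progenitor DCs (8.06%). In B cells 9 of 10 were at least 2-fold lower (13.8%), and in T cells 3 of 8 (10.0%). The B cell count included cells with a UMI of Csf1r, Fn1, F13a1 or Ace. Without them Hspa1a, Hspa1b, Hsph1 and Dnajb1 had under 50 UMIs, and Jun (0.545) and Dusp1 (0.649) were no longer called. Fos (0.159), Junb (0.329) and Egr1 (0.0765) stayed at least 2-fold lower in those B cells. Neutrophil and monocyte marker levels were also lower after GM-CSF in progenitor DCs and in some other types, as given above. The members were chosen with results of these data known, and P-I cells were among the monocytes, macrophages and dendritic cells counted. These counts are therefore a description and cannot be weighed against the shares of all genes. The GM-CSF-treated group in T cells was 39 cells. No member was at least 2-fold higher in any type, where 7.29% of all genes were in granulocytes, 3.62% in neutrophils, 5.48% in MoMacDC_c1, 6.02% in MoMacDC_c2, 12.7% in MoMacDC_c4, 2.43% in MoMacDC_c5, 5.81% in progenitor DCs, 1.41% in B cells and 1.83% in T cells.

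Clusters were deposited for monocytes, macrophages and dendritic cells, 2135 of them in the steady-state library and 3940 after GM-CSF. Of 17 clusters, 10 had at least 30 cells in each library. Hspa1a and Hspa1b were lower in all 9 clusters in which they were compared, with ratios of 0.00458 to 0.101 for Hspa1a and, in the 8 clusters with a UMI after GM-CSF, 0.00641 to 0.0652 for Hspa1b. Cluster 6 had 460 UMIs of Hspa1b in steady state and 0 after GM-CSF, at least 60.2-fold lower against 3 counts. Fos was lower in all 10 (0.0869 to 0.233), and so were Jun (0.0832 to 0.491), Egr1 (0.0452 to 0.588) and Dusp1 (0.0906 to 0.780). Cluster 6 had the lowest ratio for Fos, Jun, Junb, Egr1 and Dusp1, and cluster 3 the highest for Hspa1a, Hspa1b, Jun and Dusp1. Of the 31 steady-state cells in cluster 7, 5 carried over 5 UMIs of NK cell genes, and none of the values named here comes from that cluster.

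The highest levels of Hspa1a, Jun and Egr1 after GM-CSF were in cluster 3. In the GM-CSF-treated library Hspa1a was at 95.1 CPM (85.0 to 106) in its 512 cells, above the 32.9 CPM (18.4 to 54.3) of cluster 10, the next highest with at least 30 cells, and at 1.16 CPM (1 UMI) in the 108 cells of cluster 6. Egr1 was at 231 CPM (215 to 248) and Jun at 483 CPM (460 to 507) in cluster 3, again above all others. By cell type, MoMacDC_c2 held 26.6% of all UMIs of the GM-CSF-treated library and 73.3% of its Hspa1a, 63.4% of its Hspa1b, 61.2% of its Egr1 and 46.6% of its Jun UMIs, but 25.2% of its Fos, 24% of its Dusp1 and 27.3% of its Dnajb1 UMIs. The level of Hspa1a in cluster 3 was still below the 946 CPM of that cluster in steady state, and its Junb was nearly equal (1136 and 1107 CPM). MoMacDC_c2 after GM-CSF also carried 205 CPM of erythroid markers against 3.76 CPM in steady state, and their part in these values was not tested.

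**Figure D3:**
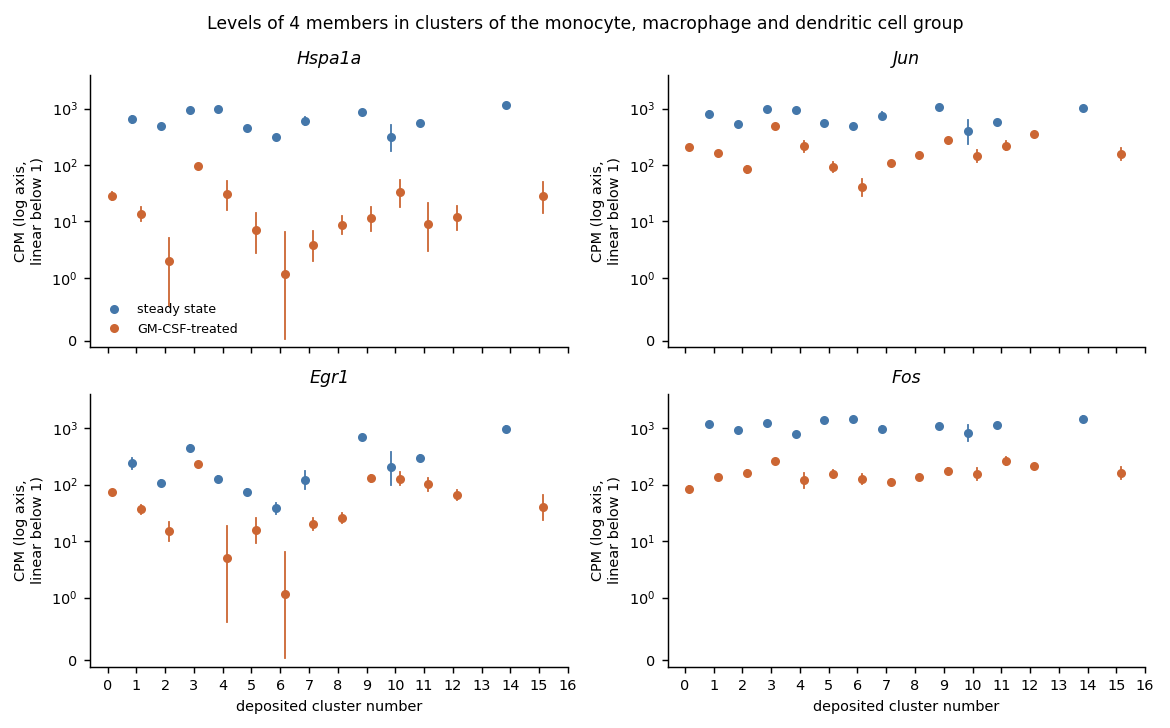
CPM of Hspa1a, Jun, Egr1 and Fos in the deposited clusters of monocytes, macrophages and dendritic cells, steady state in blue and GM-CSF-treated in orange, on an axis that is logarithmic above 1, with exact 95% Poisson intervals, for clusters with at least 30 cells in that library. After GM-CSF, cluster 3 was highest for Hspa1a (95.1 CPM), Jun (483 CPM) and Egr1 (231 CPM), and cluster 6 lowest for Hspa1a (1.16 CPM).

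In P-I cells, the contrast that chose Hspa1a and Hspa1b, 139 steady-state cells were set against 187 GM-CSF-treated cells. Hspa1a was at 221 and 7.17 CPM (241 and 10 UMIs) and Hspa1b at 180 and 4.30 CPM (197 and 6 UMIs). Fos had a ratio of 0.155 (0.127 to 0.187), Jun of 0.208 (0.162 to 0.261), Dusp1 of 0.249 (0.211 to 0.292), Egr1 of 0.387 (0.204 to 0.687), Junb of 0.591 (0.529 to 0.660) and Dnajb1 of 0.598 (0.406 to 0.871). Hspa8 was higher, at 2001 and 2670 CPM, a ratio of 1.34 (1.27 to 1.41). At least 2-fold lower were 6 of 9 members, where 7.12% of the 5774 genes compared were. They were Fos, Jun, Egr1 and Dusp1, and Hspa1a and Hspa1b, whose calls were fixed by the choice. The count is therefore a description and cannot be weighed against the share of all genes. None was at least 2-fold higher, where 4.99% were. Steady-state P-I cells carried 142 CPM of erythroid markers against 1.43 CPM after GM-CSF, and monocyte markers, a list that includes the immediate early gene Nr4a1, were at 5403 and 2079 CPM. Their part in the result was not tested.

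The Hspa1a level of P-I cells in steady state, 221 CPM, was below the 434 CPM of MoMacDC_c1 and the 1001 CPM of MoMacDC_c5, and the ratio in P-I cells (0.0341, 0.0154 to 0.0608) lay within the range over the cell types. The other CD115hi subsets had too few steady-state cells for a ratio (12 of P-III and 7 of P-IV). After GM-CSF, Hspa1a was at 7.17 CPM (3.44 to 13.2) in P-I, 5.41 CPM (1.47 to 13.9) in P-III and 20.5 CPM (15 to 27.3) in P-IV cells, the GM-CSF-induced DCs of the study, and Fos at 93.2, 87.9 and 53.4 CPM.

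The shares of cells with a UMI were compared after each cell was thinned to 1000 UMIs, which left out 14 and 61 of the monocytes, macrophages and dendritic cells. Of this group 30.1% (28.1 to 32.1) of steady-state and 2.14% (1.71 to 2.65) of GM-CSF-treated cells had a UMI of Hspa1a (55.4% and 6.75% before thinning). For Fos the shares were 53.2% and 12.4%, and for Hspa8 82.1% and 85.4%. Granulocytes had 75.1% and 38.2% for Fos, 35.8% and 3.4% for Egr1, and 90.4% and 78.2% for Dusp1, with 8 and 496 granulocytes under 1000 UMIs left out. In granulocytes, the type with the lowest steady-state level of Hspa1a, 1.35% and 0.232% of cells had a UMI of it at that depth (median depths before thinning 1770 and 1229 UMIs, against 6894 and 6654 in monocytes, macrophages and dendritic cells).

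**Figure D4:**
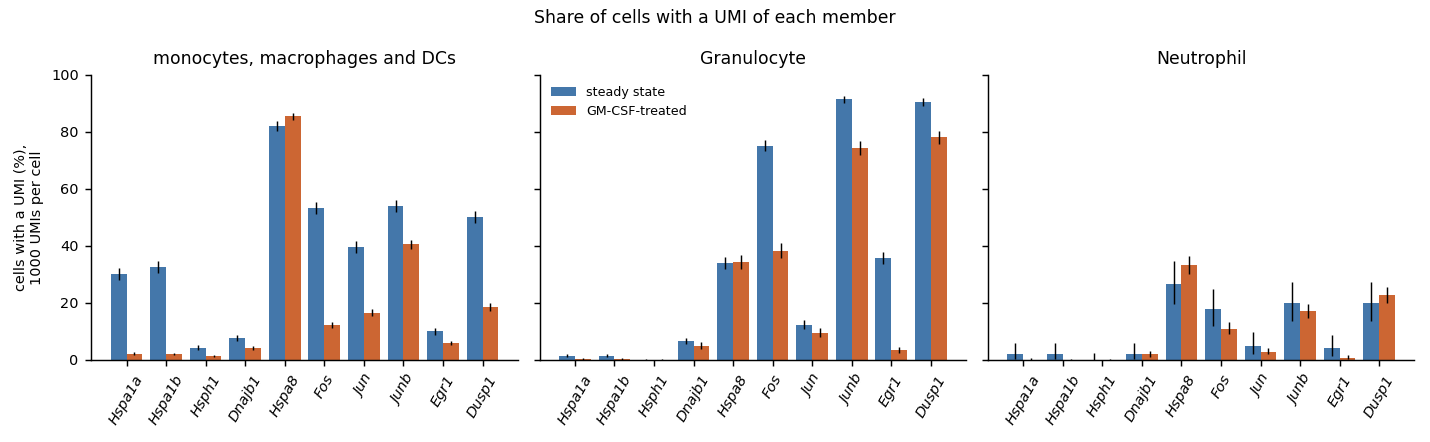
Share of cells (percent) with at least 1 UMI of each member after thinning to 1000 UMIs per cell, in monocytes, macrophages and DCs, in granulocytes and in neutrophils, with exact 95% binomial intervals as error bars, steady state in blue and GM-CSF-treated in orange. Hspa1a went from 30.1% to 2.14% of monocytes, macrophages and DCs, and Egr1 from 35.8% to 3.4% of granulocytes, while Hspa8 was nearly level in both.

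Cells of a type were also divided by whether they held a UMI of Hspa1a or Hspa1b at 1000 UMIs per cell. In steady-state MoMacDC_c1, 466 cells did and 811 did not, and the former had more Jun (1.62-fold, 1.39 to 1.88), Dusp1 (1.53-fold, 1.37 to 1.71) and Fos (1.35-fold, 1.22 to 1.49). In steady-state MoMacDC_c2 (93 and 76 cells) Egr1 was 10.6-fold (4.39 to 45.0) and Jun 2.43-fold (1.69 to 3.64) higher in cells with the HSP70 transcripts, and in GM-CSF-treated MoMacDC_c2 (96 and 1328 cells) Egr1 was 2.46-fold (1.59 to 3.59) and Jun 1.78-fold (1.30 to 2.36) higher. In steady-state granulocytes (52 and 1869 cells) the direction was opposite for Egr1 (0.506, 0.305 to 0.758) and Dusp1 (0.762, 0.637 to 0.898). The interval included 1 in these granulocytes for Fos (0.924, 0.737 to 1.13), Jun (1.03, 0.416 to 1.94) and Junb (1.07, 0.915 to 1.24). It also included 1 for Egr1 in steady-state MoMacDC_c1 (1.22, 0.833 to 1.76).

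Related gene lists were followed over all cells. Of 29 other immediate early genes compared, 17 were at least 2-fold lower and 1 was at least 2-fold higher, with a median ratio of 0.470 where the median of all genes was 0.939. For all lists, the share of all genes was 10.1% at least 2-fold lower and 7.74% at least 2-fold higher. The lowest were Nr4a1, an orphan nuclear receptor gene (456 and 54.6 CPM, ratio 0.120), and Nfkbiz, which encodes a nuclear IκB protein (377 and 65.0 CPM, 0.172). The highest were Egr2 (7.16 and 14.8 CPM, 2.06) and Myc (10.2 and 12.1 CPM, 1.19). Of 7 other dual-specificity phosphatases, 4 were at least 2-fold lower (median 0.307), with Dusp2 at 0.188 and Dusp5 at 0.244 lowest and Dusp7 at 0.542 and Dusp3 at 0.858 highest.

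Of 21 other chaperones compared, 2 were at least 2-fold lower, a share near the 10.1% of all genes, and 0 at least 2-fold higher, with a median ratio of 0.796. The lowest were Dnajb4, another HSP40 gene (0.404), and Cryab, a small heat shock protein gene (0.422), and the highest were Hsp90ab1, the constitutive HSP90 (1113 and 1571 CPM, 1.41), and Hspe1, a mitochondrial co-chaperonin (1.33). Over all cells, Hsf1, the heat shock factor gene itself, had a ratio of 0.642 (0.555 to 0.743), Hsf2 of 0.735 and Hsbp1 of 0.811. None of these 3 was called over all cells. In P-I cells Hsf1 was called, at 38.4 CPM in steady state and 6.45 CPM after GM-CSF, from 51 UMIs over both libraries. Its ratio there was 0.175 (0.0719 to 0.350). Of these 3 genes, 1 was at least 2-fold lower in MoMacDC_c4 and 1 in progenitor DCs, and none in the other compared types. Over all cells, 3 of 15 endoplasmic reticulum stress genes were at least 2-fold lower and 0 at least 2-fold higher (median 0.740). Ddit3 at 0.374 and Dnajb9 at 0.477 were lowest, and Sdf2l1 at 1.53 and Herpud1 at 0.981 highest. Of 9 glucocorticoid-induced genes 3 were at least 2-fold lower and 1 at least 2-fold higher (median 0.653). Zbtb16 at 0.148 and Klf9 at 0.328 were lowest, and Ddit4 at 2.20 and Fkbp5 at 1.42 highest.

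**Figure D5:**
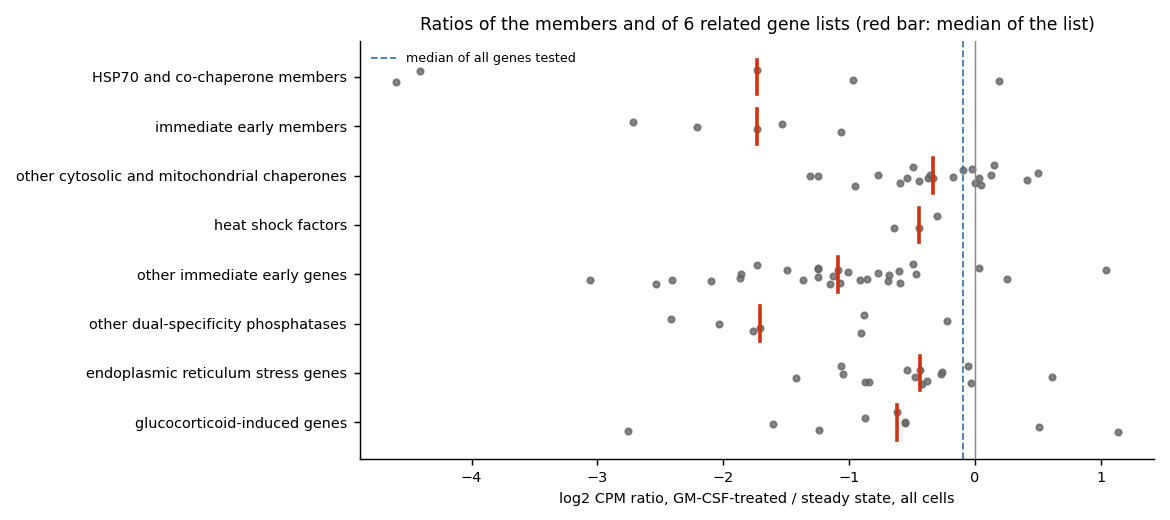
Log2 CPM ratio over all cells (GM-CSF-treated over steady state) of each gene with at least 50 UMIs in the 2 member groups and 6 related lists, with a red bar at the median of each list and a dashed line at the median of all genes. The members were picked with results known. The other immediate early genes had a median ratio of 0.470 and the other chaperones of 0.796.

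The other lists also differed between types. Of the other immediate early genes, 17 of 28 compared were at least 2-fold lower in MoMacDC_c1 (7.26% of all genes) and 18 of 26 in progenitor DCs (8.06%). The counts were 10 of 23 in B cells (13.8%), 7 of 25 in granulocytes (3.20%) and 5 of 22 in neutrophils (2.48%). This list was also chosen with earlier results of these data known, so its counts are a description. Their median ratio was 0.367 in progenitor DCs and 0.906 in neutrophils, where the medians of all genes were 0.944 and 0.963. The other chaperones had medians between 0.704 in MoMacDC_c4 (all genes, 0.892) and 1.09 in T cells (all genes, 0.929). Glucocorticoid-induced genes had medians between 0.699 in MoMacDC_c1 (all genes, 0.950) and 1.42 in neutrophils (0.963), with 1.26 in granulocytes (1.08). The other dual-specificity phosphatases had medians between 0.216 in progenitor DCs (0.944) and 1.79 in MoMacDC_c4 (0.892), with 1.10 in granulocytes. The list values over all cells were not weighted for the mix of cell types.

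The genes whose levels followed Hspa1a most closely over the 9 types in both libraries (18 points) were Hspa1b (Pearson correlation of log2(CPM + 10) 0.988), Cebpz (0.893), Jun (0.874), Metap1 (0.839) and Snx16 (0.837), out of 9750 genes with at least 200 UMIs. For Fos they were Tmem88 (0.941), Zfp36 (0.907), Gm26532 (0.907), H3f3b (0.90) and Klf6 (0.899), and Dusp1 ranked 8 (0.876) and Egr1 ranked 29 (0.830). Fos itself ranked 66 for Hspa1a (0.707) and Hspa8 ranked 2117 (0.389). The points share 2 libraries and their depth, so these values describe likeness only.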

How the data were processed

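The samples were 1 steady-state and 1 GM-CSF-treated library of CD11b+ splenocytes, each deposited as an mRNA and an antibody tag part, of which the antibody values were not used here. The submitters' processing notes name Cell Ranger 3.0.2, Seurat 3.6.0 and the build mm10. The deposited counts were whole-number UMI counts per gene and cell after the authors' cell filters, and the cell type, cluster and subset labels were the authors' own. The table of all cells and the table of monocytes, macrophages and dendritic cells agreed in every count (0 differences), and 11100 of 27998 genes had no UMI.

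From these counts, UMIs were summed per group of cells and library and scaled to CPM, with exact Poisson intervals for levels and exact binomial-share intervals for ratios (Python 3.11.15, numpy 2.4.6, scipy 1.17.1, pandas 2.3.3). The 3′ protocol counts a molecule near its poly(A) end, so levels were compared between cells and not between genes. Calls needed 50 UMIs, 30 cells in each library and a 2-fold ratio. With 1 library per condition no test was run and no p-value is given. Code for the ratios was checked on simulated data. Doublets were marked per library with the Scrublet routine of scanpy 1.11.5 (141 of 4827 and 186 of 6804 cells) for an alternative only. The members and the gene lists were chosen with earlier results of these data known. Named genes were the members, the 2 highest and 2 lowest ratios of each list, and the 5 genes most like Hspa1a and Fos.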

Additional observations from a re-analysis of the deposited data

Results flagged for a closer look

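Hspa8 was the only member with counting intervals on both sides of 1 in the compared cell types. Its CPM ratio, GM-CSF-treated over steady state, was 0.790 in B cells and 1.23 in neutrophils, 1.10 in MoMacDC_c1 and 1.25 in MoMacDC_c4. The difference between these types was not tested, since each condition had 1 library. In B cells without a UMI of Csf1r, Fn1, F13a1 or Ace the ratio was 0.932, and 27 of the 43 steady-state MoMacDC_c4 cells carried over 5 UMIs of NK cell genes.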

How the results depend on the processing

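No paired analysis was possible because each condition had 1 library, and no replicate could be left out. Every one of the 235 member ratios recomputed under an alternative in all cells and in P-I cells stayed on the same side of 1, and 54 of them left the counting interval of the reported ratio. Thinning to 1000 UMIs per cell gave 34 member by cell type ratios at least 2-fold lower in place of 59, 1 member lower in every cell type in place of 3, and 2 members at least 2-fold lower in P-I cells in place of 6, with 61, 3 and 4 compared under that setting because fewer passed the minimum of UMIs. The number of members lower in every cell type was 6 with a minimum of 20 UMIs (9 members compared) and 6 in cells with at most 5% mitochondrial UMIs (8 members in 7 cell types). Leaving out Scrublet doublets, a minimum of 100 UMIs, only G1 cells (cells without a deposited phase were kept), means over cells, division by the median ratio, another total and weighting by cell type kept each count of members within 1.5 times. The settings that left out MoMacDC_c4, or B and T cells with a UMI of Csf1r, Fn1, F13a1 or Ace, were added after the marker levels were seen. With both, the count of ratios at least 2-fold lower was 45 of 70. Counts of at least 2-fold higher members were 0 under every setting run.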
